A study of Mus musculus with 4 samples.

Results

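Genes named for a coiled-coil domain (Ccdc genes) were compared between testes of Rfx2 mutant and control mice at P24. Members were the genes whose symbol is Ccdc followed by a number and whose FPKM, the authors' estimate of fragments scaled by transcript length and sequencing depth, was at least 1 in 2 or more of the 4 samples. In all, 117 symbols passed this filter, among 12985 genes tested, and 18 did not. The symbols Ccdc39, Ccdc40, Ccdc63, Ccdc65, Ccdc103, Ccdc114, Ccdc135, Ccdc151 and Ccdc164, which are tied to axonemal dynein arms and their docking or to the ruler and regulatory complexes of the axoneme, were left out by name and are given only for comparison. Among the 18 symbols under the filter, 1, Ccdc82, was listed at 0 in every sample.

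Whole testes of 24-day-old mice gave the RNA, with 2 biological replicates per genotype, called the mutants and the controls here. The mutant mice were homozygous for an Rfx2 allele in which a neomycin cassette replaced exons 6 and 7, derived from 1 targeted embryonic stem cell clone, and mutant mice with normal growth were chosen. The labels call the control mice wild type and give the strain of all mice as DBA, whereas the study's methods call the controls heterozygous and the background mixed 129/s6 and C57BL/6. In RNA from a whole testis, fewer cells of a type and less RNA per cell cannot be told apart.

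A coiled coil is a pair or bundle of alpha helices wound around one another, and the Ccdc symbol was given to proteins with such a stretch before their work was known. The members are therefore not a family by descent. They include building blocks of the sperm flagellum, proteins of the centriole, of meiotic chromosomes, of mitochondria, of the endosome and of the ribosome, and many with no settled role. RFX2 is a transcription factor of the regulatory factor X family, which binds an inverted repeat called the X-box and is known for driving genes of cilia. In the testis it is found from meiosis into the round spermatid stage, when a short flagellum first forms and before the condensed sperm head is built.

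Of the 117 members, 9 were lower in the mutant testes and none was higher, by limma on log2(FPKM + 1) with Benjamini-Hochberg adjustment over all genes tested (threshold 0.05). The 9 were Ccdc42, Ccdc11, Ccdc110, Ccdc24, Ccdc74a, Ccdc105, Ccdc19, Ccdc113 and Ccdc96, and they made up 7.69% of the members. Of these, Ccdc42, Ccdc11 and Ccdc110 passed the filter only through their control samples, so that they had to differ. Among all genes tested, 2.52% were lower and 0.308% were higher. The members had a median control FPKM of 17.0, against 9.45 for all genes tested, and changes of low genes are understated on this scale. At an unadjusted p under 0.05, 18 members were lower and 1 was higher, against 6.68% and 2.01% of all genes tested. Both mutants lay below both controls for 39 members (33.3%, against 15.2% of all genes tested) and above them for 22 (18.8%, against 16.3%), and the groups overlapped for the other 56. The log2 fold change, mutant minus control, ranged from -5.61 to 0.90 with a median of -0.0742, beside a median of 0.0318 over all genes tested, and it was within 0.5 of zero for 94 members.

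Samples were alike in size. The files held 22553 to 22563 entries per sample, and 12557 to 12942 genes reached an FPKM of 1. The confidence bounds given by Cufflinks correspond to 17.2 to 20.3 M fragments per sample. This is an estimate from the bounds and not the number of reads sequenced, which the study gives as larger. Rfx2 itself had an FPKM of 36.7 and 39.8 in mutant 1 and 2 and of 123.1 and 89.4 in control 1 and 2, a log2 fold change of -1.43 (SE 0.19, adjusted p = 0.00617 by limma), and its adjusted p was 0.0607 with no filter, 0.0829 with median-ratio scaling and 0.0628 without control 1 (1.05e-08 to 0.0829 over all alternatives). As a value of the whole gene it also counts the exons that the allele keeps. Mutant 1 stood apart: 9 markers of elongating spermatids summed to an FPKM of 1440 there, against 5570 to 8120 in the other 3 samples, and mutant 2 is given beside it for the members this touches.

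Promoter sequences are shown first for the lowered members, because the X-box is the site that RFX proteins bind. RefSeq promoters of GRCm38.p6, from 250 bases before to 50 after the start, were matched by symbol for 96 of the 117 members, 8 of the 9 lowered ones among them. They were searched on both strands for an X-box with a gap of 0 to 3 bases between its arms and no mismatch. In the sequences, capitals mark the match, and up to 40 bases are given on either side of it, ending at most 29 bases after the start. These are the lowered members with an X-box:
Ccdc42 (chr11:68586946-68587038, plus strand): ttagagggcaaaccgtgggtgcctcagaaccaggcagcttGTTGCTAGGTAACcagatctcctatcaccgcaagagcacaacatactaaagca
Ccdc110 (chr8:45934576-45934648, plus strand): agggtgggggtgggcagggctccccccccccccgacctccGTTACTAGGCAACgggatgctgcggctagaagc
Ccdc19 (chr1:172521071-172521159, plus strand): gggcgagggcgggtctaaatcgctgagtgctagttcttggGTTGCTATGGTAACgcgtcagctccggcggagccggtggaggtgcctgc

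The X-box lay from -51 to -39 in Ccdc42, from -3 to 9 in Ccdc110 and from -19 to -6 in Ccdc19, counted from 0 at the first transcribed base. It was found in 3 of the 8 lowered members (37.5%) and in 4 of the 88 other members (4.55%). Of these 3, Ccdc42 and Ccdc110 passed the FPKM filter only through their control samples, so that they had to differ. The same search found an X-box in 33 of 258 lowered genes of the whole table (12.8%), in 260 of 10350 genes tested (2.51%) and in 1.53% of all promoter sequences. With 1 mismatch allowed, 7 of the 8 lowered members held a match (87.5%), against 21.6% of the other members. A match was held by 46.1% of the lowered genes of the whole table, 15.3% of the genes tested and 11.3% of all promoter sequences. These are the lowered members whose match had 1 mismatch, with the match nearest the start in capitals:
Ccdc105 (chr10:78753046-78753139, minus strand): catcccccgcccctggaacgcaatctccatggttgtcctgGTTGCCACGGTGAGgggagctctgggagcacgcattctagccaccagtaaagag
Ccdc113 (chr8:95534046-95534129, plus strand): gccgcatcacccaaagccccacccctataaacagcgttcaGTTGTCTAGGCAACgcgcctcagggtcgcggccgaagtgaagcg
Ccdc96 (chr5:36484549-36484617, plus strand): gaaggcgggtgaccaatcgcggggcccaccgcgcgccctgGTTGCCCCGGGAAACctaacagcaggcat
Ccdc74a (chr16:17646424-17646499, plus strand): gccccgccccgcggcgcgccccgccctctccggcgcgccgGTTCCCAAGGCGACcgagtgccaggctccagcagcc

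All 7 matches shown for the lowered members lay between 51 bases before and 15 bases after the start. The promoter of Ccdc24 held no match with up to 1 mismatch, and Ccdc11 had no RefSeq promoter to search. The half-site GTTGCC, which is 1 form of an X-box arm and so can lie within an X-box, was found on either strand in the promoters of Ccdc105, Ccdc110, Ccdc113 and Ccdc96, that is in 4 of 8, in 21.6% of the other members, in 15.9% of the genes tested and in 12.5% of all promoter sequences. An X-box also stood close to the start of members that were not called, and these are shown for contrast:
Ccdc147 (chr19:47937613-47937705, plus strand): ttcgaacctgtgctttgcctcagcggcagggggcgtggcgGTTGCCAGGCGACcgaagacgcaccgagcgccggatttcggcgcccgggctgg
Ccdc160 (chrX:52791115-52791207, plus strand): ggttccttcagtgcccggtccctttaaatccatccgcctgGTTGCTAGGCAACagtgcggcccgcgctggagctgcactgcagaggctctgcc
Ccdc60 (chr5:116288971-116289063, minus strand): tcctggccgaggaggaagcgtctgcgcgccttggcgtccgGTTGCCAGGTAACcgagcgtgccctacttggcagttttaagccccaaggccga
Ccdc46 (chr11:108425142-108425235, plus strand): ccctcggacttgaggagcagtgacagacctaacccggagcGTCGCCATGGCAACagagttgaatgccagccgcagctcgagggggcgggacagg

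Ccdc147, now Cfap58 and needed for the sperm flagellum, had an X-box without mismatch at -59 and an FPKM of 42.7 and 48.1 in the mutants against 48.0 and 35.4 in the controls. Ccdc160 had 5.37 and 4.51 against 5.18 and 6.03. The groups overlapped in both genes. Ccdc60, an abundant testis transcript, had 164.9 and 165.3 in the mutants against 245.4 and 198.9 in the controls, so that the groups did not overlap, but its log2 fold change of -0.42 (SE 0.18) had an adjusted p of 0.599 in limma. Ccdc46, now Cep112 and a centrosome protein, held X-boxes at -240 and -84 and had 47.7 and 107.1 in the mutants against 67.3 and 56.5. A match in a promoter is a description of its letters and not a measure of binding.

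**Figure D1:**
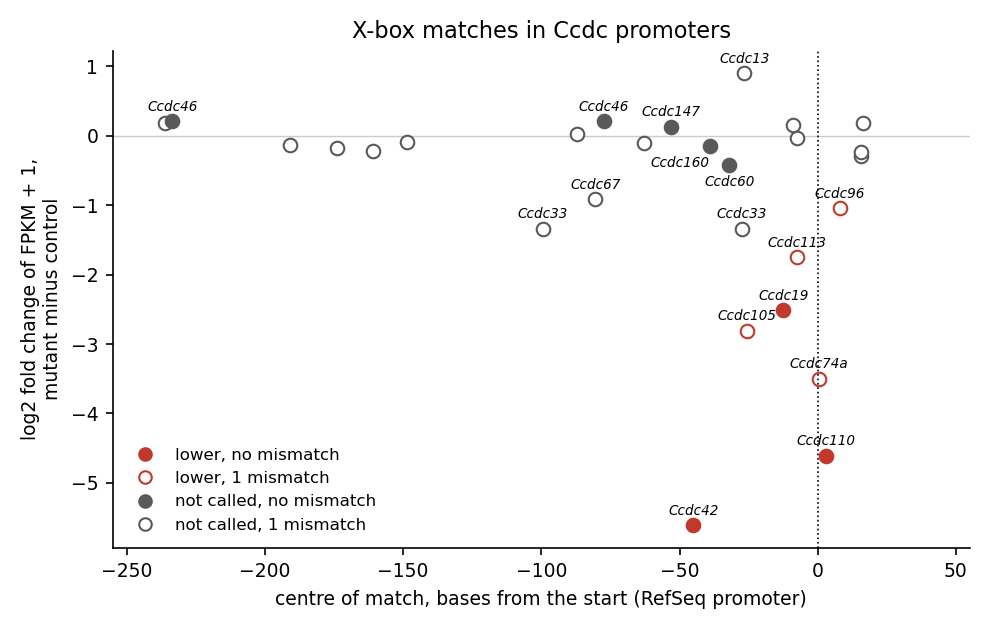
X-box matches in the RefSeq promoters of Ccdc members. The horizontal axis is the distance of the center of the match from the start in bases, the vertical axis the log2 fold change of FPKM + 1, and each point is 1 match, filled where it has no mismatch and red where the gene was lower at an adjusted p under 0.05. A promoter with no X-box without mismatch shows only its 1-mismatch match nearest the start, which draws such points toward the start. Matches with 1 mismatch are left out where an X-box without mismatch was found. The 7 matches shown for lowered genes all lie from 51 bases before to 15 bases after the start, among those of genes that were not called.

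Within 1000 bases of the most upstream start annotated in NCBIM37 (mm9), the build of the files, an X-box was found for 3 of 9 lowered members (33.3%) and 8 of 107 other members (7.48%). An X-box was there in 16.4% of the lowered genes of the whole table and in 4.6% of the genes tested. The lowered members with one there were again Ccdc42, Ccdc110 and Ccdc19. The distances differ from those above where the 2 annotations place the start differently.

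Proteins of the flagellum and of motile cilia held 5 of the 9 lowered members. This list had 10 members tested: Ccdc11, Ccdc105, Ccdc19, Ccdc113 and Ccdc96 were lower and none was higher, against 2.52% and 0.308% of all genes tested. Both mutants lay below both controls for 8 of 10, against 15.2% of all genes tested. Of the 5 lowered members, Ccdc11 passed the FPKM filter only through its control samples, so that it had to differ. The median log2 fold change of the list was -1.38, beside 0.0318 over all genes tested.

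Ccdc11, now Cfap53, encodes a protein of the inner wall of ciliary microtubules that is needed for left-right asymmetry. Its FPKM was 0.753 and 0.488 in the mutants, numbered 1 and 2, against 65.7 and 51.9 in the controls. Both mutants sat at 1.06% of the control mean when averaged, and they rested on 37 and 20 fragments against 3116 and 2617. The log2 fold change was -5.20 (SE 0.22, adjusted p = 2.61e-05 by limma).

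Ccdc105, a tektin-like protein of the sperm flagellum whose gene spans chromosome 10 from 78209669 to 78215812 of NCBIM37 on the minus strand with 7 exons, had an FPKM of 6.61 and 9.82 in the mutants and of 70.2 and 55.8 in the controls. The mutant mean was 13% of the control mean. Its log2 fold change was -2.81 (SE 0.22, adjusted p = 0.000353 by limma).

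Ccdc19, now Cfap45, also encodes an inner protein of axonemal microtubules and lies on chromosome 1 from 174451175 to 174476001, plus strand, with 12 exons. It was among the most abundant of the 9, with an FPKM of 160.1 and 137.3 in the controls and of 26.95 and 23.5 in the mutants. The mutant testes thus kept 17.0% of the control level, a log2 fold change of -2.51 (SE 0.17, adjusted p = 0.000155 by limma). An exon of 4933439K11Rik lies on the opposite strand, where the FPKM was at most 0.471 in any sample, and whether the libraries kept strand is not given in the sources used here.

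Ccdc113 and Ccdc96 encode partners in a complex of the ciliary axoneme. Ccdc113 (chromosome 8 from 98058000 to 98082788, plus strand, 9 exons) had the highest control level of the lowered members, 185.3 and 150.8, against 53.5 and 44.7 in the mutants, or 29.2% of the control mean. Its log2 fold change was -1.75 (SE 0.18, adjusted p = 0.00169 by limma). Ccdc96, a gene of 1 exon on chromosome 5 from 36827237 to 36830820, plus strand, had 31.7 and 35.7 against 77.7 and 63.01, or 47.9%. It changed least of the 9, with a log2 fold change of -1.04 (SE 0.18, adjusted p = 0.0199 by limma), and its adjusted p was 0.0859 with no filter, 0.136 with median-ratio scaling, 0.218 without control 1 and 0.0662 without control 2 (2.46e-05 to 0.218 over all alternatives).

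The difference between the partners in the share left was not tested. The 5 other members of the list were not called. Ccdc146, a microtubule-associated protein needed for the flagellum, had 2.64 and 7.05 in the mutants against 22.8 and 12.4 in the controls, a log2 fold change of -1.72 (SE 0.41, adjusted p = 0.087 by limma), with mutant 2 more than 2-fold above mutant 1. It was called lower in 4 of 14 alternatives (with the replicate block, with the crossed block and without either mutant sample), and its adjusted p ran from 1.51e-12 to 0.671 over them. Fam185a, whose start lies 281 bases away on the opposite strand, had 1.53 in both mutants against 4.91 and 4.21, and it was lower (log2 fold change -1.13, adjusted p = 0.0287 by limma). Among the tested genes that start within 1000 bases of a member on the opposite strand, Fam185a was the only one called. Tada2b, 303 bases from the start of the lowered Ccdc96, was not called (log2 fold change -0.16).

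Ccdc104, now Cfap36, had the highest mean FPKM of the list: 263.1 and 244.3 in the mutants and 308.3 and 270.4 in the controls, with a log2 fold change of -0.19 (SE 0.19). Ccdc108, now Cfap65 and needed for the flagellum, had 61.7 and 61.2 against 68.7 and 61.96. Ccdc37, now Cfap100, had 9.09 and 19.01 against 19.1 and 14.02. These genes, with Ccdc147, had adjusted p-values of 1.0, so that members with known flagellar roles were found both among the lowered genes and among those not called.

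**Figure D2:**
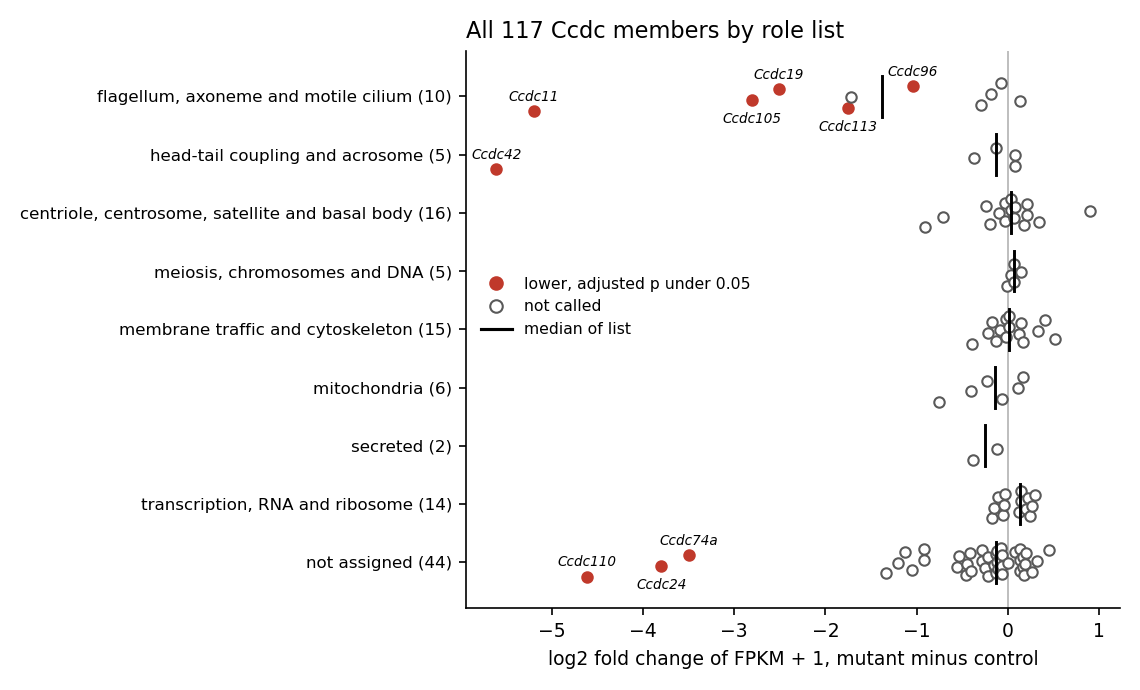
Log2 fold change of FPKM + 1, mutant minus control, of each of the 117 Ccdc members, by role list with the number of members tested in parentheses. Points are genes, red where lower at an adjusted p under 0.05, and black bars are list medians. The lowered genes are spread over 3 lists. They are 5 of 10 in the flagellar list, 1 of 5 in the head-tail and acrosome list and 3 of 44 with no role assigned. Among all genes tested, 2.52% were lower. The other lists stay between -0.91 and 0.90.

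Genes of the head-tail junction and the acrosome held 1 lowered member of 5 (20.0%, against 2.52% of all genes tested). This was Ccdc42, with the lowest log2 fold change of all members at a pseudocount of 1, although that of Ccdc110 was lower at a pseudocount of 0.1 (-7.41 against -6.82). As Ccdc42 passed the FPKM filter only through its control samples, it had to differ. Ccdc42, needed for the joining of sperm head and tail, spans chromosome 11 from 68400523 to 68411468, plus strand, with 7 exons. Its FPKM was 0.605 and 0.540 in the mutants and 93.98 and 61.1 in the controls, so that 0.738% of the control mean was left, on 21 and 16 fragments against 3113 and 2144. The log2 fold change was -5.61 (SE 0.24, adjusted p = 2.61e-05 by limma).

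Of the other 4 members of that list none was called. Ccdc38, a known partner of the CCDC42 protein, had 130.6 and 109.7 in the mutants against 125.7 and 102.3 in the controls. Ccdc136, needed for forming the acrosome, was the most abundant of the list, with 272.2 and 307.7 against 303.5 and 248.2, and its log2 fold change was 0.08 (SE 0.20). Ccdc62, also needed for the acrosome, had 38.1 and 36.3 against 42.1 and 39.4, and Ccdc87 had 22.98 and 25.2 against 33.0 and 29.9. Of the pair Ccdc42 and Ccdc38, the first kept under 1% of its control level and the second overlapped the controls.

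The 3 remaining lowered members, Ccdc110, Ccdc24 and Ccdc74a, had no role assigned, in a list of 44 (6.82%, against 2.52% of all genes tested). Of these 3, Ccdc110 passed the FPKM filter only through its control samples, so that it had to differ. Ccdc110 (chromosome 8 from 47019973 to 47029499, plus strand, 7 exons) encodes a protein known as a cancer-testis antigen. It had an FPKM of 0.0822 and 0.016 in the mutants, which correspond to 6 and 1 fragments, against 36.6 and 16.5 in the controls, which correspond to 2558 and 1221. Scaled to the fragments of the samples, this is 0.199% of the control level, with a Clopper-Pearson 95% interval of 0.0798% to 0.41%. The interval takes the estimated fragments as counts, pools the samples of a genotype and covers counting error only. Its log2 fold change was -4.61 (SE 0.35, adjusted p = 0.000285 by limma), and on the log2(FPKM + 1) scale it was the 1 member that differed at least 2-fold between the controls.

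Ccdc24 (chromosome 4 from 117539129 to 117545162, minus strand, 8 exons) had 2.49 and 1.44 in the mutants against 45.3 and 34.7, or 4.92% of the control mean, with a log2 fold change of -3.80 (SE 0.25, adjusted p = 0.000131 by limma). Its level is uncertain, because its annotated transcripts share 1254 bases with those of B4galt2 on the same strand and 1264 bases with those of Slc6a9 on the other. Neither neighbor was called: B4galt2 had 9.37 and 8.47 against 8.78 and 8.15, and Slc6a9 had 1.93 and 1.28 against 1.47 and 1.67. Ccdc74a (chromosome 16 from 17646563 to 17650831, plus strand, 8 exons) had 1.82 and 1.99 against 37.8 and 26.8, or 5.89% of the control mean, with a log2 fold change of -3.50 (SE 0.23, adjusted p = 0.000131 by limma).

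**Figure D3:**
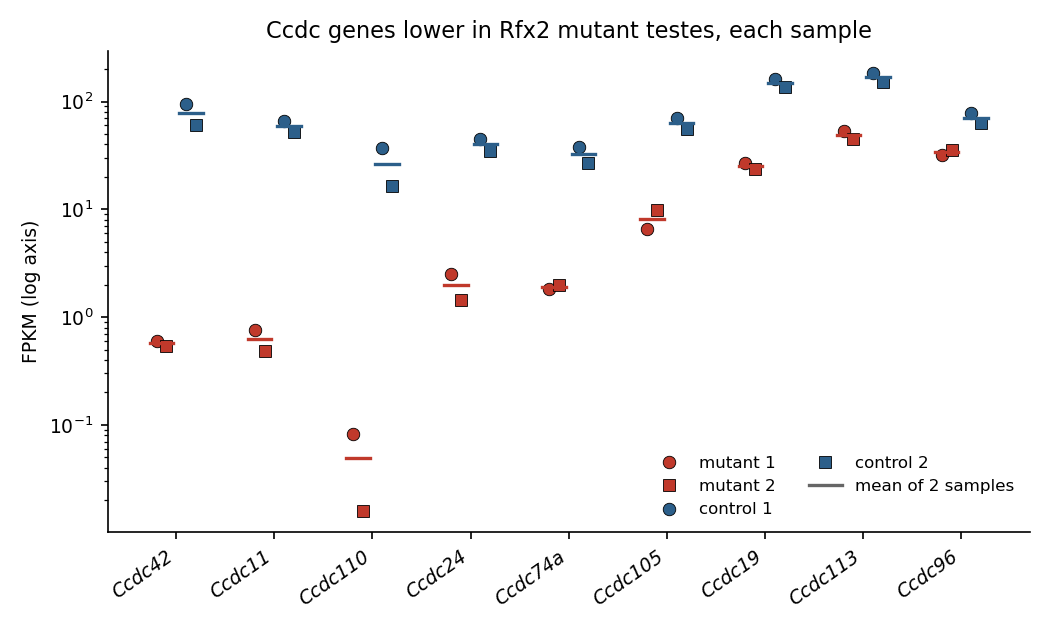
FPKM of the 9 lowered Ccdc members in each sample, on a log axis. Circles and squares are samples 1 and 2 of a genotype, and short lines are the means of the 2 samples. In each gene both mutants lie below both controls, from 0.016 against 16.5 at the lowest in Ccdc110 to 53.5 against 150.8 in Ccdc113.

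The order of the 9 by share of control level was Ccdc110 (0.185% of the control mean), Ccdc42 (0.738%), Ccdc11 (1.06%), Ccdc24 (4.92%), Ccdc74a (5.89%), Ccdc105 (13%), Ccdc19 (17.0%), Ccdc113 (29.2%) and Ccdc96 (47.9%). Ccdc110, Ccdc42 and Ccdc11 passed the FPKM filter only through their control samples, so that they had to differ, and the counts over members include them. No member passed it only through mutant samples. Summed over the 9, the FPKM was 125 and 118 in the mutants and 773 and 598 in the controls. Members that were not called summed to 3200 and 3550 against 3690 and 3190, where the groups overlapped. In control testes the 9 had a median FPKM of 63, against 14.6 for the members not called.

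Members of the centriole, the centrosome, its satellites and the basal body numbered 16, and none was called in either direction. Their log2 fold changes ran from -0.91 to 0.90 with a median of 0.027. Both mutants lay below both controls for 5 of 16 and above them for 5 of 16 (31.2% each, against 15.2% and 16.3% of all genes tested). Ccdc13, a satellite protein with a part in building cilia, was chosen after its values were seen, as the member with the highest log2 fold change. It had 121.9 and 147.4 in the mutants against 80.7 and 62.8 in the controls, without overlap, a log2 fold change of 0.90 (SE 0.19) and an adjusted p of 0.057 in limma. Its call depended on the setting, since it was higher at an adjusted p under 0.05 with robust eBayes, with the replicate block and without either mutant sample, 4 of 14 alternatives.

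Ccdc67, now Deup1 and the core of the deuterosome that multiplies centrioles in multiciliated cells, had the largest absolute log2 fold change of this list. It had 15.6 and 26.4 in the mutants against 41.9 and 36.3, without overlap, a log2 fold change of -0.91 (SE 0.25, adjusted p = 0.153 by limma). Without mutant 2 its adjusted p was 1.19e-06 (1.19e-06 to 0.744 over all alternatives). Ccdc92, a centriole-associated protein and the most abundant of the list, had 274.4 and 264.5 against 253.9 and 178.2, with a log2 fold change of 0.34 (SE 0.22).

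Lists tied to general cell functions held no called member. The 5 members for meiosis, chromosomes and DNA had log2 fold changes from -0.01 to 0.14, and their groups overlapped in all 5. Ccdc155, now Kash5, which links meiotic telomeres to the cytoskeleton, had 48.6 and 49.4 in the mutants against 52.5 and 41.4. Ccdc99, now Spdl1, which brings dynein to kinetochores, had 7.97 and 6.503 against 6.32 and 6.58.

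The 14 members for transcription, RNA and the ribosome ran from -0.18 to 0.30. Of these, 6 of 14 lay above both controls (42.9%, against 16.3% of all genes tested) and 1 of 14 below (7.14%, against 15.2%). Ccdc124, a ribosome-associated protein with the largest absolute log2 fold change of that list, had 74.7 and 78.2 against 68.5 and 55.9, with a log2 fold change of 0.30 (SE 0.17, adjusted p = 0.896 by limma). Ccdc101, now Sgf29 and a subunit of the SAGA complex, had 92.6 and 158.8 against 115.2 and 91.1, where mutant 2 alone stood above the controls.

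The 15 members for membrane traffic and the cytoskeleton ran from -0.39 to 0.52. Ccdc93, a part of the Commander complex of the endosome, had 3.43 and 5.97 against 2.73 and 3.01, a log2 fold change of 0.52 (SE 0.27, adjusted p = 0.763 by limma), and Ccdc23, now Svbp and the partner of tubulin carboxypeptidases, had 135.1 and 136.2 against 127.2 and 90.7. The 6 mitochondrial members ran from -0.76 to 0.16. Ccdc109a, now Mcu and the pore of the calcium uniporter, had 2.09 and 5.31 against 7.74 and 5.43, with mutant 2 only just under the lower control sample, and Ccdc56, now Coa3 and needed to assemble cytochrome oxidase, had 28.8 and 26.8 against 29.6 and 28.2. The 2 secreted members had log2 fold changes of -0.38 and -0.12. Exons of another gene lie on the opposite strand for 35 of the members, and their levels are uncertain for that reason. Besides Ccdc19 and Ccdc24, these include Ccdc13, Ccdc33, Ccdc38, Ccdc46, Ccdc56, Ccdc85b, Ccdc91, Ccdc93, Ccdc101 and Ccdc108, and of the genes left out by name Ccdc39 and Ccdc63.

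Members with a log2 fold change below -1 that were not called are given here, and they were chosen after their values were seen. Besides Ccdc146 and in FPKM of the mutants against the controls, they were Ccdc33 (5.87 and 11.7 against 25.9 and 19.9, adjusted p = 0.0711), Ccdc81 (19.5 and 34.1 against 66.5 and 56.3, adjusted p = 0.0554), Ccdc27 (9.33 and 26.1 against 38.5 and 33.1, adjusted p = 0.331) and Ccdc148 (2.89 and 1.998 against 6.53 and 5.67, adjusted p = 0.0671), by limma. In each of them both mutants lay below both controls. Of 14 alternatives, Ccdc33 was called lower in 4, Ccdc81 and Ccdc148 in 3 each and Ccdc27 in 2. In Ccdc33, Ccdc81 and Ccdc27 mutant 1 was the lower mutant sample, and in Ccdc148 it was the higher.

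The mutant samples differed from each other more than the controls did. On the scale of log2(FPKM + 1), 8 members were at least 2-fold lower in mutant 1 than in mutant 2 (6.84%, against 4.28% of all genes tested) and 1, Ccdc109b, was at least 2-fold lower in mutant 2 (0.855%, against 0.501%). Between the controls, 1 member differed that far. The SD of the log2 difference over members was 0.49 between the mutants and 0.28 between the controls, beside 0.47 and 0.35 over all genes tested.

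The 8 were Ccdc54, Ccdc159, Ccdc27, Ccdc70, Ccdc46, Ccdc146, Ccdc91 and Ccdc109a, none of them called, and in all 8 mutant 1 lay below both controls. Ccdc54 had 19.7 in mutant 1 and 80.8 in mutant 2, against 77.2 and 77.03. Ccdc159 had 5.43 and 21.9 against 17.2 and 14.3. Ccdc70 had 25.1 and 57.6 against 64.6 and 39.5. In these genes and in Ccdc91 (24.6 and 55.3 against 42.8 and 38.6) and Ccdc46, mutant 2 lay within or above the controls.

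Markers of elongating spermatids, such as the protamines and transition proteins, also had their lowest sum in mutant 1. Their 9 genes summed to an FPKM of 1440 in mutant 1 and of 6840 in mutant 2, against 8120 and 5570, and their median difference from the control mean was -1.39 on the log2 scale in mutant 1 and 0.12 in mutant 2. The 8 round spermatid markers had medians of -0.521 and 0.282, with sums of 471 and 830 against 704 and 568. No marker of either list was called or at 0 in all samples, and their part in the differences between the mutants was not tested.

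**Figure D4:**
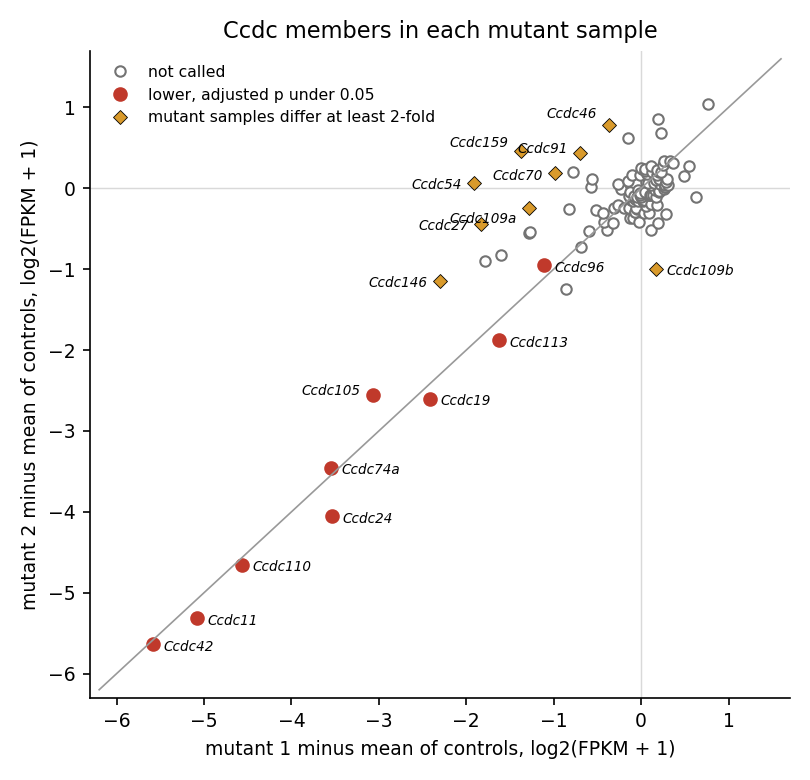
Difference of mutant 1 (horizontal axis) and mutant 2 (vertical axis) from the mean of the controls in log2(FPKM + 1), 1 point per Ccdc member, with a line of equal values. Red points are the 9 lowered genes and orange diamonds the 9 genes that differ at least 2-fold between the mutants, 8 of them above the line. On this scale, which flattens values under an FPKM of 1, the lowered genes lie close to the line.

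The 9 lowered members were low in both mutants, which follows largely from how they were called. Spermatid marker sums in mutant 2 were within or above those of the controls, and the part of cell numbers in the 9 was not tested. With mutant 2 alone as the mutant group, 14 members were lower and 2 were higher, beside 433 (3.33%) and 162 (1.25%) of all genes tested. With mutant 1 alone, 22 were lower and 1 was higher, beside 948 (7.3%) and 102 (0.786%). All 9 were among the lower members in both cases, but these fits reuse the samples that called them and are no separate test. Sums for the other cell types were given by 7 markers of spermatocytes (2890 and 2840 against 3020 and 2620) and 9 of Sertoli cells (684 and 598 against 454 and 626), which overlapped between the groups, and those of spermatogonia, Leydig cells, peritubular myoid cells, macrophages and endothelial cells overlapped as well. Of 5 epididymal markers, 4 stayed under 1 in every sample and the highest value was 6.99, in mutant 1.

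The 9 Ccdc genes left out by name were set beside the members. Of these, 5 were lower (55.6%) and none higher: Ccdc164 (1.05 and 0.494 against 67.8 and 56.8), Ccdc135 (0.972 and 0.887 against 39.0 and 29.1), Ccdc40 (3.82 and 3.37 against 35.5 and 30.9), Ccdc65 (19.1 and 18.8 against 153.4 and 127.2) and Ccdc39 (33.7 and 31.2 against 74.9 and 75.7). Their log2 fold changes were -5.17, -4.17, -2.90, -2.82 and -1.19. Among all genes tested, 2.52% were lower. The study named these 5 among the cilia genes it picked from its own changed genes in the same samples. The share of 55.6% is therefore not independent of these data. Ccdc135 passed the FPKM filter only through its control samples, so that it had to differ. The dynein docking genes Ccdc114 (25.1 and 22.9 against 24.8 and 21.4) and Ccdc151 (53.6 and 56.9 against 40.4 and 32.3) were not called, nor were Ccdc63 (33.6 and 65.3 against 58.4 and 54.0) and Ccdc103 (21.01 and 23.6 against 22.8 and 15.1). In Ccdc151 both mutants lay above both controls, with a log2 fold change of 0.60 and an adjusted p of 0.189 in limma. Of 8 genes of this group with a RefSeq promoter, Ccdc151 and Ccdc103 held an X-box without mismatch. With 1 mismatch allowed, 5 of 8 held a match (62.5%), namely also the lowered Ccdc65 and Ccdc39 and the uncalled Ccdc114. Within 1000 bases of the NCBIM37 start, 3 of 9 held an X-box without mismatch: the lowered Ccdc40 and the uncalled Ccdc103 and Ccdc151. The study reported RFX2 at the Ccdc65 promoter by ChIP-PCR.

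The filter left members of low level at its edge. Just inside it were Ccdc109b, now Mcub (1.25 and 0 in the mutants against 0.623 and 1.44), Ccdc64b (1.37 and 0.565 against 0.788 and 1.12) and Ccdc85b (1.39 and 1.03 against 0.943 and 1.22). Just outside were Ccdc51 (0.938 and 0.886 against 0.839 and 0.926), Ccdc126 (0.946 and 0.676 against 0.890 and 1.44) and Ccdc120 (0.821 and 0.532 against 0.555 and 0.848). Over all symbols, filtered or not, the median log2 fold change was -0.0579.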

How the data were processed

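RNA of 2 mutant and 2 control testes was sequenced by the authors on an Illumina HiSeq, aligned to mm9 with TopHat 2.0.6 and quantified with Cufflinks. The deposited files hold 1 FPKM per gene entry with confidence bounds, normalized by the authors for length and depth within a sample. Entries sharing a symbol were summed, to 22311 symbols, and no Ccdc symbol had more than 1 entry. A gene was tested where 2 or more samples reached an FPKM of 1, on log2(FPKM + 1), so that changes of low genes are understated, with limma 3.58.1 under R 4.3.3 (lmFit, eBayes with a trend), two-sided, with Benjamini-Hochberg adjustment over 12985 genes. Each gene has 2 residual degrees of freedom. The functions were tested on simulated data. Percentages of control compare mean FPKM without a pseudocount.

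Fragments behind a value were derived from its confidence bounds. For entries under 30 fragments, 77.8% to 78.9% came out whole within 0.05, so they are estimates and no count test was run. The samples are biological replicates by the labels. Gene positions came from GENCODE vM1 on NCBIM37 (116 of 117 members located, 1 of them within 10 Mb of Rfx2), and promoters from RefSeq. Tables were made with python 3.11.15, pandas 2.3.3 and numpy 2.4.6.

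Roles were assigned from background knowledge of the genes. The members, role lists, marker lists and alternatives were chosen with earlier results of these data known. Genes named are all called members, in each role list of 3 or more members the largest absolute log2 fold change and the highest mean FPKM, 3 genes on each side of the filter, the 9 left-out genes and Rfx2, and other names are said to be added or stand for a list. Same-numbered samples of the genotypes share only a number.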

Additional observations from a re-analysis of the deposited data

How the results depend on the processing

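Of the 9 lowered Ccdc members, 8 kept their call in every fit that was run, and Ccdc96 lost it with no filter, with median-ratio scaling and without either control sample. Over all genes tested, 199 were lower and 17 higher with no filter, 202 and 17 with a filter at an FPKM of 5, 206 and 16 with median-ratio scaling, and 67 were higher with robust eBayes, where 1 Ccdc member, Ccdc13, was higher. With the replicate block from the labels, 16 Ccdc members were lower and 1 higher, and 525 and 70 genes in all. Deviations of same-numbered samples correlated at -0.154 and the block leaves 1 residual degree of freedom, so a crossed replicate block was added after seeing the data, with 11 Ccdc members lower and 266 and 28 genes in all. Leaving out 1 sample gave 8 to 22 Ccdc members lower, 0 to 2 higher, 167 to 948 genes lower and 13 to 162 higher in all, and a Ccdc median of -0.0885 to -0.0118. The lone sample is then assumed to vary like the other group. The Ccdc median was -0.0188 with quantile normalization, which moved the median of all genes by 0.0455 (median-ratio scaling by -0.0179). Log2 fold changes near zero changed sign: with quantile normalization those of Ccdc56 (0.0159) and Ccdc64b (0.0266), and with 1 sample left out those of Ccdc85b (-0.0334 to 0.20), Ccdc63 (-0.72 to 0.21), Ccdc114 (-0.0475 to 0.16), Ccdc136 (-0.0685 to 0.22), Ccdc101 (-0.14 to 0.63), Ccdc64b (-0.32 to 0.28), Ccdc109b (-0.99 to 0.18), Ccdc155 (-0.0965 to 0.24) and Ccdc103 (-0.0317 to 0.53). Without mutant 1, Ccdc109b was lower (adjusted p = 0.0152), and without mutant 2, Ccdc109a (0.00373) and Ccdc63 (0.019) were. Ccdc39 lost its call without control 1 (0.0684) and control 2 (0.0629), all by limma. Lowered members with no role assigned numbered 5 with robust eBayes, 8 with the block and 3 to 11 with 1 sample left out. As ratios of mean FPKM without a pseudocount, the log2 values were -7.08 for Ccdc42, -6.57 for Ccdc11, -9.08 for Ccdc110, -4.34 for Ccdc24 and -4.09 for Ccdc74a. The cause of these changes was not tested. At this depth, values under an FPKM of 1 rest on few fragments, and with 2 samples per genotype a gene's spread rests largely on the trend across genes.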
